A study of Mus musculus with 12 samples.

Results

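The effect of R788 on macrophages held in NBT3L tumor conditioned medium (TCM) was measured by RNA sequencing of 4 libraries, 2 labelled NBT3L TCM (SJ5 and SJ6) and 2 labelled NBT3L TCM + R788 (SJ11 and SJ12), out of 12 libraries in the series. The genes described were those with at least 10 counts in at least 2 of the 12 libraries, which left 16281 of 54232. All cells were bone marrow-derived macrophages (BMDMs), macrophages grown from bone marrow of wild-type C57BL/6 mice for 5 days and then exposed for 24 h. NBT3L and NB9464 are mouse neuroblastoma lines, and NB9464 is the MYCN-amplified one of the pair. R788 (fostamatinib), a small-molecule inhibitor of the kinase Syk, was given at 500 nM. The other groups, also of 2 libraries each, were NS (cells without TCM or R788), R788 alone, NB9464 TCM and NB9464 TCM + R788. Each medium came from 1 tumor line, and how many mice a library came from was not given in the sources used here, nor was the vehicle in the libraries without R788 or the way NBT3L TCM was prepared. P-values therefore measure the spread between these libraries, which may be technical.

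Syk is a cytoplasmic tyrosine kinase that binds the phosphorylated tails of immunoreceptors, among them Fc receptors, C-type lectins and integrin-linked adaptors, and passes the signal to phospholipase C gamma, PI3-kinase, the CARD9 and NF-kB route and the ERK route. Macrophages also keep a tonic output of type I interferon, which acts through a shared receptor and its transcription factors on a large set of antiviral genes whose promoters carry an element called ISRE. Tumor-associated macrophages are known for the chemokines that recruit monocytes, for matrix proteases and for genes that restrain T cells.

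Total counts were between 44977847 and 54838959 in the 4 libraries compared, with 17803 to 18098 genes detected. Library SJ8 (R788 alone) stood apart with 16149 genes detected, against 17275 to 18343 in the other 11 libraries. All 9 macrophage markers (Csf1r, Adgre1, Cd68, Itgam, Fcgr1, Lyz2, Mertk, Cd14 and Spi1) were measured in every library, and their summed normalized count was 2285792 and 2431767 in NBT3L TCM and 2691519 and 2733148 with R788, most of it Lyz2. Of the 9, 5 were called higher with R788 and 3 (Fcgr1, Itgam and Cd14) lower. Genes are named by a rule stated with the methods, and some more for their role, chosen after their values were seen. Normalized counts are read counts divided by the library's size factor, and fold changes below are of DESeq2, with R788 over without, n = 2 libraries a group. The share of counts on mitochondrial genes was 0.713% and 0.737% without R788 and 0.626% and 0.625% with it, and its part in the results was not tested. Levels are of RNA from whole cultures, so fewer cells of a kind and less RNA per cell cannot be told apart.

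Of the 16281 genes, 2046 (12.6%) were called at an adjusted p under 0.05, 867 higher (5.33% of those tested) and 1179 lower (7.24%). The changes were mostly small. The median fold was 1.31 for the genes that rose and 1.38 for those that fell, and 314 called genes changed at least 2-fold, 86 higher and 228 lower. At least 4-fold, 22 rose and 81 fell. The median log2 fold change over all genes tested was 0.0033. The groups did not overlap for any called gene, and they did not overlap either for 8729 genes (53.6%) of all those tested. The quasi-likelihood test of edgeR called 1604 genes, 1588 of them among the 2046. With 1 library left out of the fit, the count was 1264 without SJ5, 1172 without SJ6, 1222 without SJ11 and 1186 without SJ12.

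**Figure D1:**
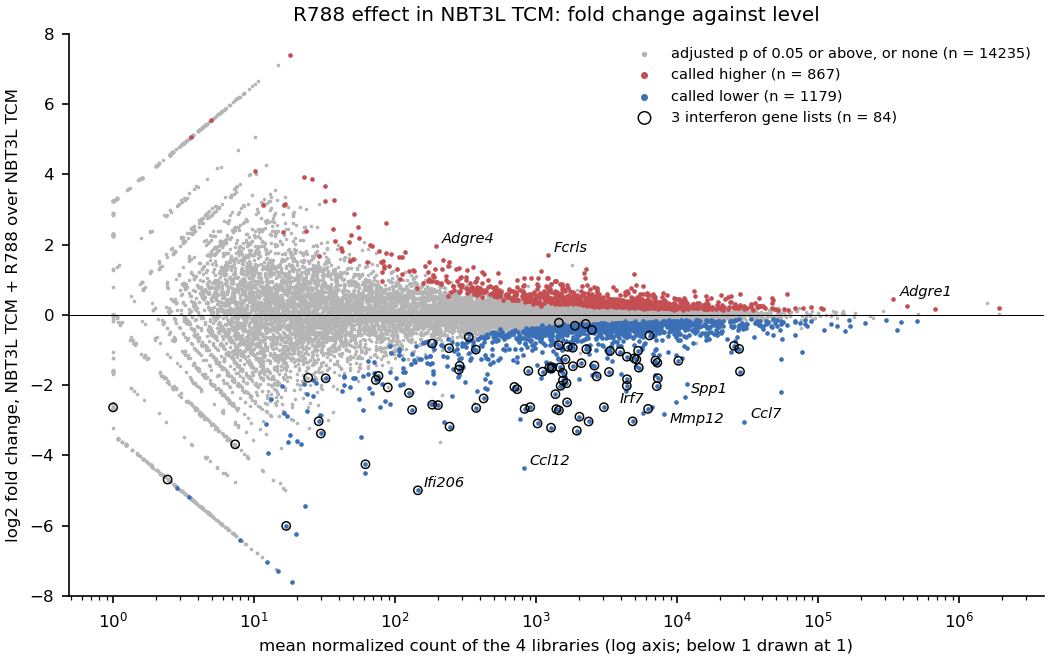
Log2 fold change with R788 in NBT3L TCM (vertical axis) against the mean normalized count of the 4 libraries (horizontal log axis) for the 16281 genes tested, red where called higher, blue where called lower, grey otherwise. Black rings mark the 84 tested genes of 3 interferon lists, all of which lie below 0, and gene names mark single genes described in the text.

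Syk itself rose slightly. Its normalized count was 37102 and 37581 in NBT3L TCM and 44194 and 43852 with R788, so the groups did not overlap, and the log2 fold change was 0.24 ± 0.051 (SE, adjusted p = 5.64e-05). R788 acts on the kinase and not on the transcript, so this value is no check of the inhibition.

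Interferon-stimulated genes made up most of the strongest falls. Among 55 antiviral interferon-stimulated genes, all tested, 52 fell and 0 rose, with a median log2 fold change of -1.62. For the Ifi200 family of DNA-sensing and regulatory proteins 12 of 13 fell, with a median of -2.02, and of 16 interferon-inducible GTPases, which attack the vacuoles of intracellular pathogens, 11 fell, with a median of -1.80. No member of either list rose. These shares stood against 7.24% lower over all genes tested. Without SJ5, SJ6, SJ11 or SJ12 the calls among the 55 were 49, 49, 50 and 49.

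The 10 largest falls among called genes with a mean of at least 100 normalized counts held 7 of these genes, the antiviral Ifit1, Ifit3, Ifit3b, Slfn4, Zbp1 and Oasl2 and the Ifi200 member Ifi206, besides Ccl12, Ccl7 and Ch25h. Their promoters were read for the letters of the ISRE core. The sequences are from RefSeq (GRCm38.p6), 5′ to 3′ on the gene's strand and before the start site, with capitals on each match to GAAA, any 2 bases and GAAA again, on either strand, so that a match on the other strand reads TTTC, 2 bases and TTTC. Matches were allowed to overlap.
Ifi206 (chr1:173491329-173491378, minus strand): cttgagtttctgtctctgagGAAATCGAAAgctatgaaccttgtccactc
Ifit1 (chr19:34640765-34640833, plus strand): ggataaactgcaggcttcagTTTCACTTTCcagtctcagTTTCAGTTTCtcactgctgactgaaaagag
Ifit3 (chr19:34583353-34583436, plus strand): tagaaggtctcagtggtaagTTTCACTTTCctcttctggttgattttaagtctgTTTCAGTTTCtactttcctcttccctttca
The single match of Ifi206 began 40 bases before its RefSeq start site, and those of Ifit1 began 104 bases before its own at the far end. Gene positions given with the values are from GENCODE, where Ifi206 and Ifit1 start at other bases than in RefSeq. Ifit3b, a neighboring copy of Ifit3, holds the same stretch with 2 matches at chr19:34607749-34607832. Ccl12, Slfn4, Ch25h and Oasl2 had no match before the start. The promoters of Ccl7 and Zbp1 were not read.

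In windows of 300 bases, 250 before to 50 after the start, the letters occurred in 1131 of 32851 promoters (3.44%), and in 446 of the 11263 tested genes with a promoter in the table (3.96%). They were in 23 of 43 antiviral genes with a promoter (53.5%), in 9 of 12 Ifi200 genes (75%) and in 9 of 10 GTPase genes (90%). In the list of interferon signaling genes and regulators they were in 3 of 18 (16.7%). Of the genes that fell at least 4-fold, 21 of 58 held them (36.2%), and of all genes that fell, 90 of 940 (9.57%). Of those that rose, 22 of 699 did (3.15%). They were in 0 of 6 CC chemokine promoters. A match describes the letters in this window and is neither a site nor a cause.

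The values behind these falls were well separated. Ifit1 (ENSMUSG00000034459, chr19:34640871-34650009 in GRCm38), an antiviral protein that binds foreign RNA caps, had 3754 and 3305 normalized counts in NBT3L TCM and 365 and 354 with R788, a log2 fold change of -3.30 ± 0.14 (SE, adjusted p = 1.84e-115). Irf7, the factor that amplifies type I interferon genes, went from 11613 and 11324 to 1926 and 1775 (-2.63 ± 0.063). Isg15, a ubiquitin-like modifier, went from 5056 and 5364 to 797 and 887 (-2.63 ± 0.12). The lowest library without R788 was thus over the highest with it by several fold for each of the 3 genes. Ifi206 (chr1:173468485-173491041) fell from 287 and 275 to 14.8 and 3.01 normalized counts (-4.99 ± 0.48, adjusted p = 5.53e-23), the largest fall among genes at that level. Zbp1, a sensor of left-handed nucleic acid that starts necroptosis, fell from 4203 and 4198 to 446 and 578 (-3.04 ± 0.14). Ch25h, which makes 25-hydroxycholesterol, fell from 370 and 426 to 36 and 59.3 (-3.06 ± 0.46).

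Not all of the pathway moved that way. In the list of interferon signaling genes and regulators 7 of 21 fell and 3 rose, with a median of -0.046. The falls included those of Irf7, Stat2 (7456 and 7625 to 2796 and 2698, -1.46 ± 0.066), Irf9 (-0.80 ± 0.077), the DNA sensor Cgas (-1.01 ± 0.17), Irf1 and Tbk1, and the rises were of the receptor and kinase genes Ifngr1, Ifngr2 and Tyk2, by 0.20 to 0.27. The receptor gene Ifnar1 had 16723 and 16248 counts without and 16282 and 16362 with R788 (-0.014 ± 0.052, adjusted p = 0.919), and those groups overlapped. The ligand genes Ifnb1 and Ifna4 did not pass the count filter. For this list the number of calls was 6 without SJ5, 5 without SJ6 and 6 without SJ11.

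NBT3L TCM by itself had already lowered much of the set. Against NS, where 35.3% of all genes were called, 30 of the 55 antiviral genes were lower in NBT3L TCM and 1 was higher, with a median log2 fold change of -0.37. For Irf7 the NS libraries had 25056 and 25319 counts and those with R788 alone 4008 and 4138. Ifit1 stood at 3274 and 3123 in NS, not above its level in NBT3L TCM. That comparison shares the NBT3L TCM libraries with the one above, and each is given with its own values. Ifit3 and Ifit3b, the Ifi200 genes, the Gbp genes and the Oas1 genes are related members of gene families. How reads were divided among similar members is not known, so single members are less certain than their lists.

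**Figure D2:**
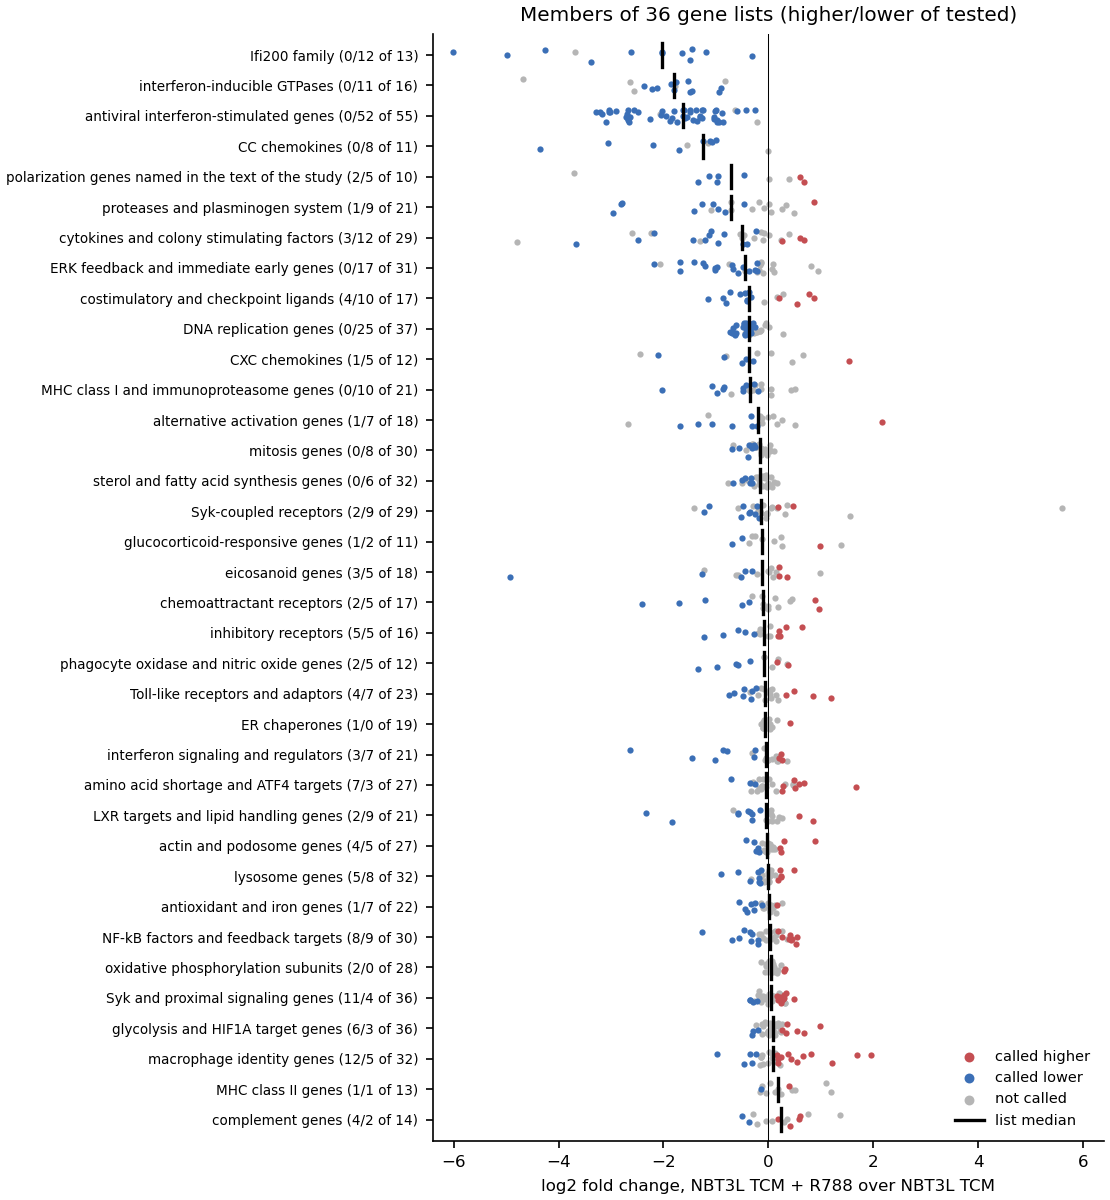
Log2 fold change with R788 in NBT3L TCM for every tested member of 36 gene lists, ordered by the list median (black bar), with the numbers called higher and lower of those tested beside each name. The 3 interferon lists and the CC chemokines have medians of -1.25 or less, and the highest median is 0.245, of the complement genes.

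Chemokine genes fell next. Of 11 CC chemokine genes tested 8 fell and 0 rose, with a median of -1.25, and the count stayed at 8 with each of the 4 libraries left out. The monocyte attractants that act on CCR2 fell most. Ccl7 (ENSMUSG00000035373, chr11:82045712-82047525) had 52784 and 54240 normalized counts in NBT3L TCM and 6643 and 6279 with R788 (-3.05 ± 0.056). Ccl2 went from 89837 and 88610 to 20086 and 18875 (-2.19 ± 0.086), and Ccl12 from 1425 and 1705 to 61.5 and 90.4 (-4.36 ± 0.25). In NS, Ccl7 stood at 11931 and 12492, so its level with NBT3L TCM + R788 was under that of cells without tumor medium.
The inflammatory chemokine genes Ccl3, Ccl4 and Ccl5 fell by less, by 1.06, 1.70 and 1.12 on the log2 scale. Ccl3 kept 15431 and 15605 counts with R788, against 2025 and 2208 in NS. Ccl6 and Ccl9, ligands of CCR1, fell by 1.0 and 1.25.

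Of the 12 CXC chemokine genes 5 fell and 1 rose. Cxcl10, an interferon-induced attractant of T cells, fell from 666 and 736 to 165 and 163 counts (-2.10 ± 0.29). Of the neutrophil attractants, Ppbp went from 1110 and 1014 to 656 and 532 (-0.84 ± 0.23), Cxcl2 from 15020 and 15203 to 11232 and 11186 (-0.43 ± 0.068) and Cxcl5 by -0.50 ± 0.18. Cxcl3 had 17024 and 17601 counts without and 9705 and 10085 with R788, which DESeq2 did not call (-0.81 ± 0.38) and edgeR did (adjusted p = 0.00403). The Ppbp call was lost without SJ5 (-0.77) or SJ12 (-0.69). The Cxcl5 call was lost with each of SJ5, SJ6, SJ11 and SJ12 left out (-0.56, -0.43, -0.53 and -0.47), and edgeR gave it an adjusted p of 0.125. Cxcl12 rose from 47.0 and 36.8 to 136 and 108, a call that edgeR did not make (adjusted p = 0.0587). Calls in this list numbered 3 without SJ5 or SJ12. Among 17 chemoattractant receptors 5 fell and 2 rose, and Ccr1 had the largest fall of those above 100 counts, from 3603 and 4008 to 1387 and 953 (-1.70 ± 0.14). The complement receptor gene C5ar1 fell from 17075 and 17971 to 11919 and 12773. Ccr2, the receptor of the Ccl2 group, had 300 and 326 counts without and 311 and 271 with R788.

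**Figure D3:**
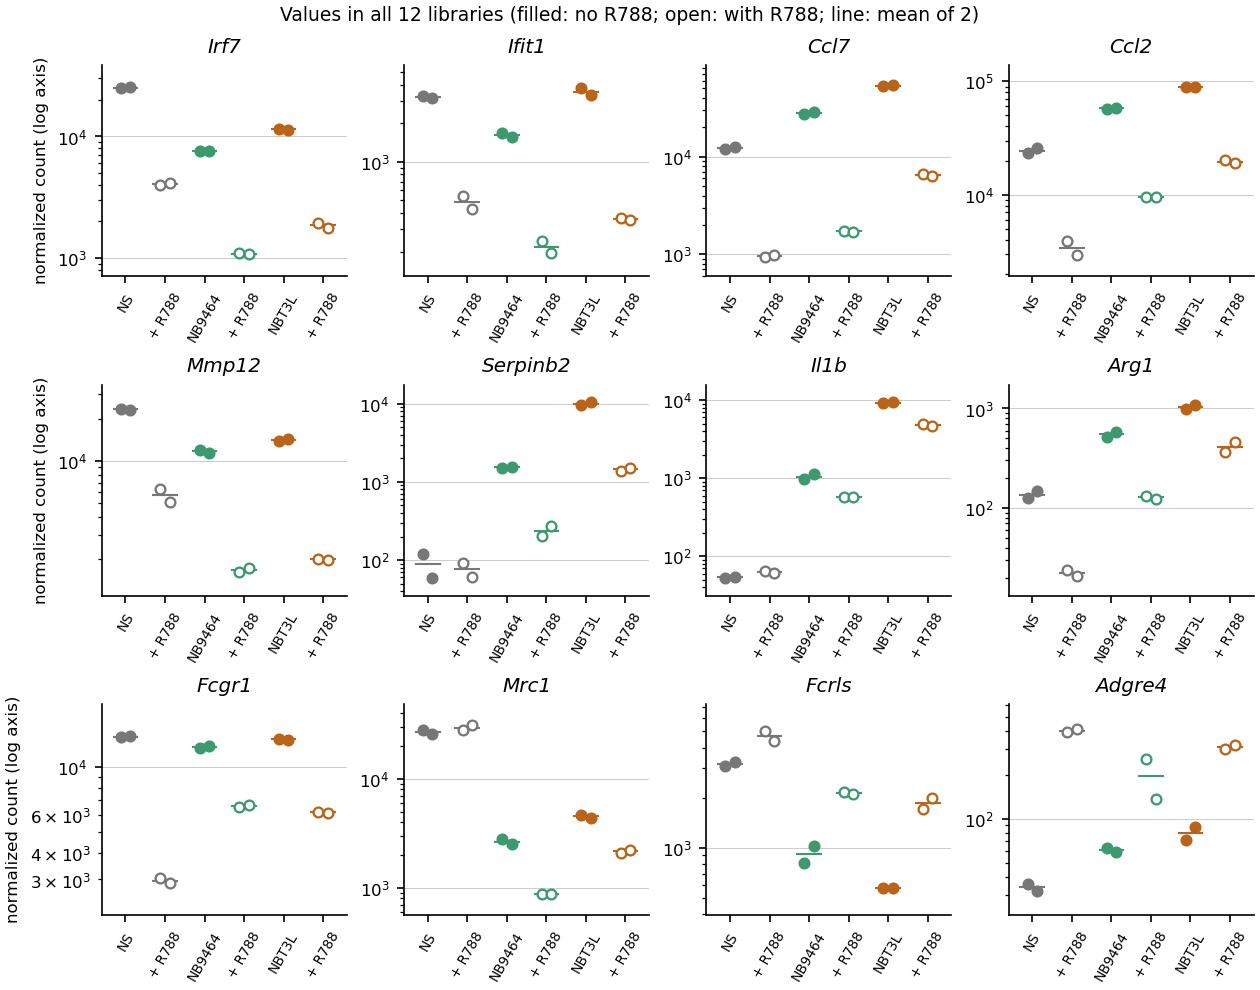
Normalized counts of 12 genes (log axes) in all 12 libraries, grouped by medium, with filled points for libraries without R788, open points for those with it and a line at the mean of the 2 libraries. Irf7, Ifit1, Ccl7, Ccl2, Mmp12, Arg1 and Fcgr1 are lower with R788 in each of the 3 media, while Serpinb2 and Il1b were not called without TCM, and Fcrls and Adgre4 are higher with R788 in each.

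Cytokine genes that were called mostly fell. Of 29 tested 12 fell and 3 rose, with a median of -0.50, and 9 were called without SJ12. Il1rn, which encodes the IL-1 receptor antagonist, fell from 16222 and 16839 to 2808 and 3086 (-2.49 ± 0.11). Its agonists fell by less, Il1a from 4446 and 4322 to 2169 and 1964 (-1.08 ± 0.12) and Il1b from 9275 and 9335 to 4922 and 4614 (-0.96 ± 0.096). Csf3, which encodes G-CSF, a granulocyte growth factor, went from 7308 and 6902 to 1460 and 1674 (-2.18 ± 0.11), far above the 1.88 and 5.69 of NS. Edn1, the gene of the vasoconstrictor endothelin-1, fell from 332 and 352 to 119 and 133. Tnf fell by 0.23, from 10214 and 10141 to 8903 and 8408. The 3 rises were of Ebi3, Il12a and Vegfa. By edgeR 9 of the list fell and 2 rose, and Tnf (adjusted p = 0.0649) and Ebi3 (adjusted p = 0.0805) were not called.

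Of 11 polarization genes listed from the study's text, 10 were tested, 5 fell and 2 rose, with a median of -0.71. The study named some of them for BMDMs in NB9464 TCM with and without R788, and others for macrophages from tumors. Its text does not name NBT3L TCM, and the list is no independent evidence of direction. Arg1, the arginase that depletes arginine, went from 996 and 1092 to 366 and 457 (-1.34 ± 0.21), and Nos2, which makes nitric oxide from the same amino acid, from 2035 and 2079 to 1121 and 958 (-0.99 ± 0.14). Il1b is given above, Mmp9 went from 9253 and 8883 to 6527 and 6667 (-0.46 ± 0.074), and Il12b from 625 and 702 to 308 and 297 (-1.13 ± 0.21). Il12b and Il12a encode the chains of IL-12, and they moved in opposite directions. Il12a rose from 529 and 595 to 860 and 854 (0.61 ± 0.20, adjusted p = 0.0202), a call lost with each of SJ5, SJ6, SJ11 and SJ12 left out (0.53, 0.70, 0.60 and 0.61). Vegfa, the angiogenic factor, rose from 1067 and 1017 to 1716 and 1627 (0.68 ± 0.12). Il10 had 510 and 442 counts without and 634 and 623 with R788, which did not overlap but missed the threshold (0.40 ± 0.18, adjusted p = 0.122). Tgfb1 had 28003 and 27864 without and 28434 and 28228 with it (0.020 ± 0.049, adjusted p = 0.866), and Ido1 was at or under 21.6 counts in all 4.

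Of 21 genes of proteases and the plasminogen system 9 fell, 1 rose and 11 were not called, with a median of -0.71 and 10 calls with each of the 4 libraries left out. The elastase Mmp12 (chr9:7344381-7369499) went from 13826 and 14273 to 2014 and 1990 normalized counts (-2.81 ± 0.085), and the collagenase Mmp13 from 1425 and 1288 to 178 and 168 (-2.97 ± 0.20). Serpinb2, an inhibitor of plasminogen activators, went from 9650 and 10346 to 1390 and 1505 (-2.79 ± 0.33). The genes of the activator that it blocks and of its receptor fell too, Plau from 2009 and 2030 to 917 and 774 and Plaur from 10601 and 9717 to 3809 and 3834. Mmp2 was the one that rose, from 1066 and 1100 to 2005 and 1981 (0.88 ± 0.13). Spp1, the secreted matrix protein osteopontin, went from 19340 and 18887 to 3720 and 3850 (-2.34 ± 0.053), and NS stood at 135345 and 137111. Exons of Mmp12 overlap those of Mmp1b, of Serpinb2 those of Serpinb10, of Spp1 a predicted gene and of Irf7 those of Phrf1. Those of Cxcl10 overlap Art3 and those of Il1b its antisense RNA. Other genes described here have such overlaps too, among them Tap1 with Psmb9, Fosl1 with Ccdc85b, Ccnd1 with LTO1 and Nrxn2 with Slc22a12. Exons of Edn1, Cgas, Nlrc5 and Cpt1c also overlap those of another gene. The overlaps of Serpinb2 and Spp1 are on the same strand, where strand would not separate the reads. The others named here are on the opposite strand. Whether counting used strand was not given in the sources used here, so reads in those stretches cannot be told apart either.

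For the MHC class I and immunoproteasome genes, which serve the presentation of cytosolic peptides to CD8 T cells, 10 of 21 fell and 0 rose. The median was -0.34. The class I genes H2-K1 (62067 and 60424 to 63478 and 62680) and H2-D1 (98023 and 98561 to 99954 and 103141) were not called. B2m was not called by DESeq2 (-0.37 ± 0.15) but was by edgeR (adjusted p = 0.0352). The falls included H2-T22, H2-T23 and H2-T24 (-0.98, -0.84 and -2.04) and genes of peptide processing and regulation. Tap1, a chain of the peptide transporter, went from 5641 and 4989 to 2679 and 2367 (-1.07 ± 0.095), and Nlrc5, the class I transactivator, from 2381 and 2292 to 1294 and 1260 (-0.87 ± 0.12). Of 13 MHC class II genes 1 rose and 1 fell. H2-Ab1 went from 1970 and 2158 to 2460 and 2962 (0.39 ± 0.14), and Ctss changed by -0.14 ± 0.048. Both of those calls were absent under edgeR (adjusted p = 0.0597 and 0.0617), and no class II gene was called without SJ5 or SJ6, and 1 without SJ11 or SJ12.

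Ligands that steer T cells changed in both directions, 10 of 17 lower and 4 higher. Cd86, a costimulator, went from 691 and 500 to 227 and 311 (-1.14 ± 0.23), and Cd40 from 1740 and 1778 to 1377 and 1290. Cd274, which encodes PD-L1, went from 9523 and 9400 to 7884 and 7246 (-0.32 ± 0.066), and with R788 it was still above the 1657 and 1627 of NS. Lgals9, a ligand of the TIM-3 receptor, fell from 16293 and 16597 to 9421 and 9440, as did the receptor's own gene Havcr2, from 811 and 775 to 485 and 383. The rises were of Icosl, the ligand of ICOS (663 and 768 to 1373 and 1263, 0.88 ± 0.14), Nectin2, Vsir, the gene of the checkpoint protein VISTA (11357 and 10556 to 15855 and 16035), and Sirpa. The scavenger and mannose receptor genes Msr1 and Mrc1 were in a list of alternative activation genes in which 7 of 18 fell and 1 rose. Mrc1 went from 4716 and 4424 to 2095 and 2225 (-1.08 ± 0.079). Calls in that list numbered 5 without SJ5, SJ6 or SJ12.

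Genes near the drug's target moved by small amounts. Of 36 genes of Syk and its proximal signaling partners 11 rose and 4 fell, with a median of 0.061, and none changed 2-fold. The count of calls was 6 without SJ6 or SJ12. Fgr, a Src-family kinase, rose from 4112 and 4536 to 5957 and 6255 (0.50 ± 0.079), and Card9, Ptpn6, Pik3cd and Pik3cg rose by 0.22 to 0.30. Btk (4875 and 5031 to 4607 and 4631), Plcg2 and Lyn were not called. Among 29 receptors that signal through Syk 9 fell and 2 rose. Fcgr1, the high-affinity IgG receptor, went from 13530 and 13424 to 6198 and 6125 (-1.13 ± 0.055), Trem1 from 692 and 857 to 351 and 310 (-1.23 ± 0.17), and Clec4n, which encodes Dectin-2, from 23700 and 24081 to 16367 and 17099. The other activating Fc receptor genes Fcgr3 and Fcgr4 had differences of -0.14 and -0.16 that were not called, and the shared chain genes Fcer1g and Tyrobp were not called either. Among 16 inhibitory receptors 5 rose and 5 fell, with Siglec1, itself induced by interferon, from 14722 and 15388 to 6722 and 6130 and Cd300a from 3612 and 3086 to 5372 and 5063.

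Gene lists linked to routes downstream of Syk differed from each other in their calls, and the activity of the routes was not measured. In a list of ERK feedback and immediate early genes 17 of 31 fell and 0 rose, with a median of -0.45. Fosl1 went from 646 and 606 to 139 and 138 (-2.18 ± 0.26), Egr1 from 271 and 293 to 98.6 and 76.4 (-1.69 ± 0.36), Ccnd1, the G1 cyclin, from 4394 and 4530 to 1924 and 1851 (-1.24 ± 0.098), and the feedback phosphatase Dusp6 from 4352 and 4073 to 1856 and 2330 (-1.01 ± 0.10). Among 30 NF-kB factors and feedback targets 9 fell and 8 rose, with a median of 0.040. Ptgs2, the gene of COX-2, fell from 2262 and 1967 to 871 and 878 and Tnfaip3 from 6666 and 6849 to 4542 and 4604, while Nfkb2, Relb, Bcl3 and Icam1 rose by 0.42 to 0.55. The NF-kB list had 11 calls without SJ5, SJ11 or SJ12. Of 23 Toll-like receptors and adaptors 7 fell and 4 rose, with Tlr7 from 6749 and 6718 to 4255 and 3805 and Tlr9, also a nucleic acid receptor of endosomes, from 301 and 354 to 713 and 786 (1.19 ± 0.18).

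Cell-cycle genes fell a little further from a level that NBT3L TCM had already lowered. Of 37 DNA replication genes 25 fell and 0 rose, with a median of -0.37. Mcm6, a subunit of the replicative helicase, went from 8982 and 9075 to 6929 and 6222 (-0.46 ± 0.066) and Pcna, the sliding clamp, from 15196 and 15348 to 11234 and 11378 (-0.43 ± 0.057). In NS they had stood at 16057 and 16061 and at 29326 and 30054. The largest fall in the list was of Ccne2 (-0.73 ± 0.14), so no member changed 2-fold. Of 30 mitosis genes 8 fell, with a median of -0.16, among them Ttk (-0.70 ± 0.17), and 4, 5, 4 and 3 were called without SJ5, SJ6, SJ11 and SJ12. Of 32 sterol and fatty acid synthesis genes 6 fell and 0 rose, with Fasn from 6102 and 6238 to 4175 and 4591.

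The genes that rose had no group as uniform as the interferon genes. The nearest was macrophage identity, where 12 of 32 rose and 5 fell against 5.33% higher over all genes, with a median of 0.097. Adgre4, an adhesion receptor of the F4/80 family, had the largest rise of all genes above 100 counts, from 71.8 and 87.6 to 299 and 319 (1.95 ± 0.35, adjusted p = 5.39e-07). Fcrls, a scavenger receptor also used as a marker of microglia, went from 576 and 569 to 1710 and 1992 (1.69 ± 0.13). Cd5l, a secreted protein of tissue macrophages, went from 271 and 229 to 577 and 578 (1.21 ± 0.16). Both Fcrls and Cd5l had been far higher in NS, at 3084 and 3264 and at 3053 and 3120. Adgre1, which encodes F4/80 itself, rose from 290964 and 290086 to 393312 and 394565 (0.44 ± 0.038), Csf1r, the M-CSF receptor, by 0.18, Mertk by 0.37 and Gas6, a ligand of Mertk, by 0.67. Axl, the related receptor, fell from 356 and 372 to 140 and 229 (-0.98 ± 0.24), a call lost without SJ11 (-0.67). All 3 chains of complement C1q rose, C1qa from 2202 and 1791 to 2853 and 3159 (0.59 ± 0.10), C1qb by 0.42 and C1qc by 0.60, out of 14 complement genes of which 4 rose and 2 fell.

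The other large rises were at low counts. Postn, which encodes the matrix protein periostin, went from 114 and 107 to 289 and 366 (1.57 ± 0.31), Pdcd4, a translation inhibitor, from 111 and 68.2 to 292 and 176 (1.38 ± 0.33) and Best1, a chloride channel, from 71.8 and 108 to 225 and 285 (1.5 ± 0.41). Cpt1c, Nrxn2, the noncoding 1700003M07Rik and Gm13710 and the pseudogene Gm13183 completed the 10. Of these, Gm13183 and Cpt1c lost the call without SJ6 (1.26 and 1.38), SJ11 (1.51 and 1.6) or SJ12 (2.0 and 1.7), Nrxn2 without SJ6 or SJ12 (1.56 and 1.37), 1700003M07Rik without SJ12 (1.38), Best1 without SJ5 or SJ12 (1.24 and 1.32), Pdcd4 without SJ6 or SJ11 (1.07 and 0.97) and Gm13710 without SJ5 or SJ11 (1.15 and 1.3). Adgre4, Fcrls and Postn kept it each time. For Gm13183 edgeR gave an adjusted p of 0.109.

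Markers of other cells moved beside some of these rises. Of 7 fibroblast markers 2 rose, Col1a1 from 870 and 822 to 1589 and 1383 and Col1a2 from 710 and 475 to 1196 and 1270, and the summed level of the 7 was 2006 to 2260 in NBT3L TCM and 3529 to 3580 with R788. The other fibroblast genes were not called. Dcn had 91.6 and 72.5 counts without and 15.9 and 46.2 with R788, and Lum 94.1 and 68.2 against 29.7 and 28.1. Col3a1 went the other way, from 308 and 350 to 536 and 508, as did Pdgfra, from 29.7 and 13 to 36.1 and 94.5. Pdgfrb had 156 and 206 without and 178 and 199 with R788. Of 6 B cell markers 3 were tested and 2 rose, Cd79b from 166 and 158 to 404 and 416 and Ighm from 177 and 136 to 348 and 428, with a summed level of 297 to 350 and 757 to 846, while Ms4a1 and Pax5 were at 0 in all 4 libraries. Of 8 neutrophil markers Ngp rose (summed level 10638 to 10895 and 8248 to 8443), and of 6 osteoclast markers Acp5 rose and Ctsk and Dcstamp fell (8499 to 8864 and 9146 to 9276). None of the T cell (37.1 to 50.9 and 64.3 to 67.9), dendritic cell (95.2 to 140 and 73.2 to 96.5), mast cell (56.9 to 106 and 2.12 to 40.2), erythroid (13 to 23.5 and 3.18 to 6.03) or neuroblastoma (119 to 131 and 84.4 to 104) markers was called. Few could be, since 2 of 7, 4 of 6, 3 of 6, 0 of 6 and 6 of 10 of them were tested. Several of those tested were at low counts and had no adjusted p. The part of these cells in the rises above, Postn included, was not tested.

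Metabolic lists differed widely in the share called, beside 12.6% called over all genes tested, 5.33% higher and 7.24% lower. The share called was 7.14% for the oxidative phosphorylation subunits, under that of all genes. The share lower was 8.33% for the glycolysis and HIF1A target genes, near that of all genes. Of 36 glycolysis and HIF1A target genes 6 rose and 3 fell, with a median of 0.081, Ndrg1 among the rises (4890 and 5035 to 7175 and 7387, 0.55 ± 0.090). Of 28 oxidative phosphorylation subunits 2 rose and 0 fell, and neither call was made by edgeR or with any 1 of SJ5, SJ6, SJ11 or SJ12 left out, when 0 were called. Among 27 targets of the amino acid shortage factor ATF4 7 rose and 3 fell, with Sesn2, an inhibitor of mTORC1, from 865 and 892 to 1354 and 1453. There were 4 calls without SJ5, 6 without SJ11 and 5 without SJ12. In a list of antioxidant and iron genes 7 of 22 fell and 1 rose, with Nqo1 from 4260 and 4838 to 3091 and 3056 and Hmox1 from 183806 and 188472 to 147966 and 149135, and 4 were called with each library left out. Of 21 LXR targets and lipid handling genes 9 fell and 2 rose, and besides Spp1 the fatty acid carrier Fabp4 fell, from 585 and 773 to 193 and 190. Of 32 lysosome genes 8 fell and 5 rose, with Ctsl from 81897 and 81461 to 54847 and 55132, and 8, 7, 8 and 7 were called without SJ5, SJ6, SJ11 and SJ12.
Calls in the remaining lists went in both directions or were few, and the ER chaperones (5.26% called) were under the 12.6% of all genes. Of 18 eicosanoid genes 5 fell and 3 rose (5 calls without SJ5 and 4 without SJ12), of 27 actin and podosome genes 5 fell and 4 rose (4 without SJ6 and 5 without SJ11), of 12 oxidase and nitric oxide genes 5 fell and 2 rose, of 19 ER chaperones 1 rose (0 without SJ12), and of 11 glucocorticoid-responsive genes 2 fell and 1 rose.

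The same drug was also tested without TCM and in NB9464 TCM, which asks whether the effect depends on the medium. Without TCM 26.6% of genes were called, and in NB9464 TCM 14.5%. Of the 55 antiviral genes 53 fell without TCM and 49 in NB9464 TCM, with medians of -1.30 and -1.49, beside 52 and -1.62 in NBT3L TCM. Of 11 CC chemokines 8 fell without TCM and 7 in NB9464 TCM, with medians of -2.72 and -0.98. DNA replication genes fell in 35 of 37 cases without TCM (median -0.79) and in 31 in NB9464 TCM (median -0.51). Protease genes fell in 7 of 21 cases without TCM and rose in 6, and fell in 10 in NB9464 TCM.

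**Figure D4:**
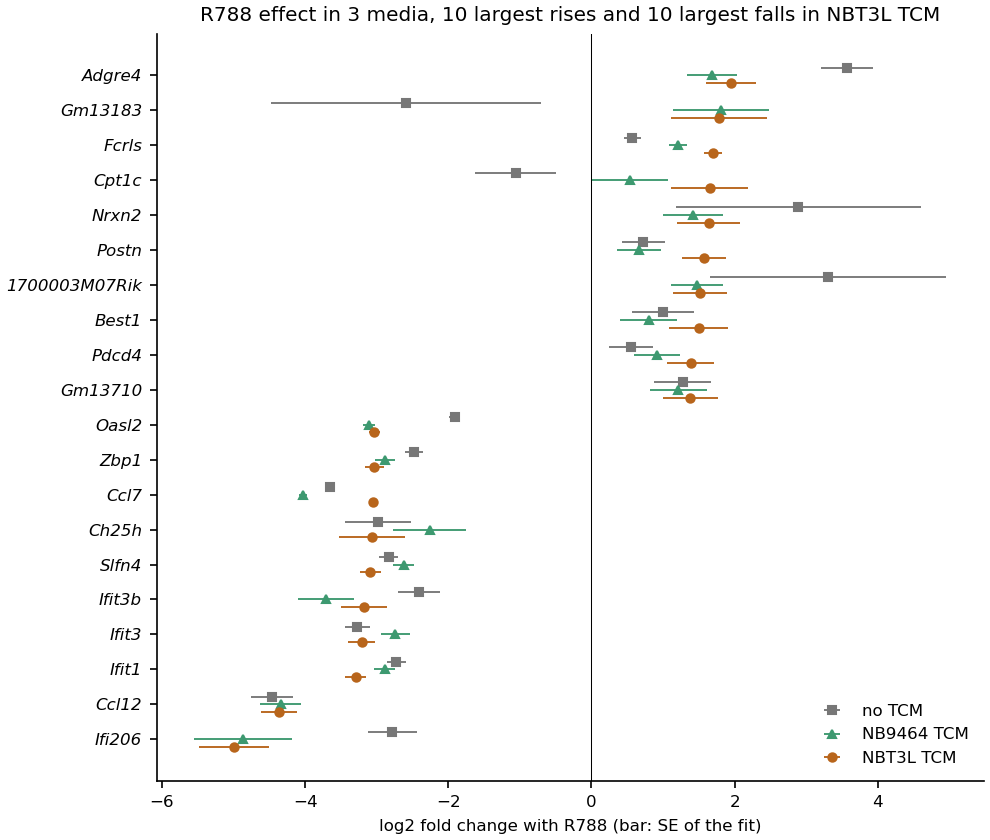
Log2 fold change with R788 (points, with the SE of the fit as bars) without TCM (grey squares), in NB9464 TCM (green triangles) and in NBT3L TCM (orange circles) for the 10 largest rises and the 10 largest falls in NBT3L TCM. All 10 falls were below -1.9 in each medium, while Gm13183 and Cpt1c were below 0 without TCM.

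The difference between the effect in NBT3L TCM and that without TCM was called for 1649 genes (10.1%), 842 positive and 807 negative, and it was 1034 without SJ2, 1063 without SJ6, 1069 without SJ12 and 2585 without SJ7, which leaves SJ8 as the only library of R788 alone. Of the 55 antiviral genes 23 were among them, as were 7 of the CC chemokines. Ccl7 differed by 0.61 ± 0.084 (adjusted p = 2.98e-11), so its fall was smaller in NBT3L TCM, and Oasl2 by -1.12 ± 0.11 (adjusted p = 3.01e-22), so its fall was larger. Il1b differed by -1.19 ± 0.22 (adjusted p = 4.38e-06). Without TCM it had 52.6 and 55 counts and 65.4 and 60.7 with R788. For Cd86 the direction turned, since R788 alone raised it from 479 and 601 to 819 and 935 counts. Mrc1 and Ccr1, which fell in NBT3L TCM, had 28261 and 26069 against 27830 and 31158 and 3721 and 3913 against 3588 and 3283 counts without and with R788 alone.

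Between the 2 tumor media the effect differed for 115 genes (0.706%), 69 positive and 46 negative, and edgeR called 21. The count was 56 without SJ5, 46 without SJ6, 48 without SJ11 and 50 without SJ12, and without the NB9464 libraries SJ3, SJ4, SJ9 and SJ10 it was 75, 75, 51 and 65. Of the 55 antiviral genes 3 were among the 115, as were 3 of the 11 CC chemokines. Ccl7 fell less in NBT3L TCM than in NB9464 TCM, where it went from 27308 and 28740 to 1720 and 1712 (difference 0.98 ± 0.082, edgeR adjusted p = 2.13e-05). Fkbp5, a glucocorticoid-induced chaperone, went from 1356 and 1357 to 976 and 941 in NBT3L TCM and from 3295 and 3554 to 4778 and 5166 in NB9464 TCM (difference -1.04 ± 0.13, edgeR adjusted p = 0.00127). Rgs11, a regulator of G-protein signaling, rose from 1124 and 1150 to 1804 and 1514 in NBT3L TCM and went from 777 and 919 to 585 and 555 in NB9464 TCM (difference 1.12 ± 0.22, edgeR adjusted p = 0.0271), although its rise in NBT3L TCM was not called without SJ5, SJ6 or SJ11 (0.53, 0.56 and 0.41).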

How the data were processed

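RNA was sequenced from BMDMs of 6 groups with 2 libraries each. The authors deposited 1 table of raw read counts per gene, with gene lengths and no normalization, for 54232 gene IDs aligned to mm10. The submitters' processing notes name Picard 2.26, STAR 2.6.1d, SAMtools 1.9, Salmon 1.4.0 and MultiQC 1.11 without saying which step gave the counts. The labels describe paired reads, so both mates of a pair may be counted. Strandedness was not given in the sources used here. Of the IDs, 54165 were matched to symbols and positions of GENCODE M21.

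A gene was kept when 2 or more of the 12 libraries had 10 or more counts. One model of 6 group means was fitted over the 12 libraries with DESeq2 1.42.0 (R 4.3.3), with two-sided Wald tests of unshrunken log2 fold changes and Benjamini-Hochberg adjustment over all genes. Genes were called at an adjusted p under 0.05, and 3157 genes had no adjusted p in the comparison of R788 in NBT3L TCM because the tool set them aside. Differences between media were tested as contrasts of the same fit. The quasi-likelihood test of edgeR 4.0.16, other scalings, filters and sets of libraries, and fits without 1 library were the alternatives. Both tools were tested on simulated data. The 4 libraries compared held 44977847 to 54838959 counts each.

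The members of the comparison and the 36 gene lists (824 symbols, 802 tested) were chosen with earlier results of these data known. Genes were named by a rule: Syk, the 10 called genes that rose most and the 10 that fell most at a mean of 100 normalized counts or more, up to 4 members of each list by size of change and then level, all members of a list of polarization genes taken from the text of the study (which also names Tnf, not in that list), and the 5 largest called differences between media in each direction at a mean of 100 normalized counts or more over the libraries compared. The others named (among them Isg15, Irf9, Ifnar1, Ccl3, Ccl5, Ccl6, Ccl9, Cxcl12, Ccr2, Tnf, Plau, Mmp2, Cd40, Cd274, Vsir, Card9, Btk, Dusp6, Nfkb2, Mcm6, Pcna and Gas6) were chosen after their values were seen. Promoters were read from RefSeq (GRCm38.p6). Values of some genes are not reported here.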

Additional observations from a re-analysis of the deposited data

Results flagged for a closer look

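All values here are differences of the R788 effect between media, tested as a contrast of the DESeq2 fit and given on the log2 scale. Between NBT3L TCM and no TCM the effect differed for 1649 genes, and between NBT3L TCM and NB9464 TCM for 115.

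Genes are given here only where the mean over the libraries compared was at least 100 normalized counts, and called genes under that level can have larger values. Against no TCM, the largest positive differences were those of Draxin (6.31), Ascl2 (5.51), Rasgrp3 (3.92), Mgarp (3.75) and Nptx1 (3.6). Rasgrp3, an activator of Ras, went from 2.48 and 6.49 to 57.3 and 60.3 counts in NBT3L TCM and stood at 357 and 397 in NS and 322 and 315 with R788 alone, and its call held without each library (adjusted p = 6.44e-06). Draxin and Ascl2 were at 0 in both libraries of R788 alone, so their fitted values depend on how the model treats zeros. The Draxin call was lost without any of SJ2, SJ5, SJ6, SJ7, SJ8, SJ11 or SJ12, with a value of 0.857 without SJ2 and of 6.22 to 6.4 without one of the others. That of Ascl2 was lost without SJ1 (4.71), SJ7 (5.6) or SJ8 (5.42), and those of Mgarp and Nptx1 without SJ2 (2.5 and 3.59).

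The largest negative differences were those of Edn1 (-8.49), Hpgd (-5.99), Cxcl5 (-3.79), Cd207 (-3.41) and Ptger3 (-3.3). Edn1 was at 0 in both NS libraries and at 23.6 and 22.4 counts with R788 alone, while in NBT3L TCM it fell. The fitted values of Edn1 and of Hpgd, which has a group at 0 too, depend on the zeros, as does their place in this order. Ptger3, a receptor of prostaglandin E2, went from 117 and 80.6 to 268 and 561 counts without TCM and from 82.9 and 80.1 to 43.5 and 26.1 in NBT3L TCM. Edn1, Cxcl5 and Ptger3 kept the call without each library. The value of Cxcl5 rests on low counts without TCM, 1.88 and 5.69 in NS and 20.9 and 51.9 with R788 alone. Its fall in NBT3L TCM was -0.50. Hpgd, which degrades prostaglandins, went from 136 and 129 to 316 and 241 counts without TCM and was at 4.95 and 6.49 and then at 0 in NBT3L TCM, and its call was lost without SJ11 (-6.03) or SJ12 (-5.95). The call of Cd207 was lost without any of SJ1, SJ2, SJ5, SJ6, SJ8, SJ11 or SJ12 (-5.9 to -2.38).

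Against NB9464 TCM, the 5 largest positive differences at that level were those of Fanci (1.43), Macrod1 (1.41), Amz1 (1.34), Rgs11 (1.12) and Ccl7 (0.98), and the 5 largest negative ones those of Axl (-1.66), Il12b (-1.39), Fkbp5 (-1.04), U90926 (-0.807) and Il1a (-0.674). By edgeR the adjusted p was 0.0864 for Fanci, 0.172 for Macrod1, 0.0726 for Amz1, 0.0576 for Axl, 0.18 for Il12b and 0.307 for Il1a, and 0.0343 for U90926. The calls of Fanci were lost without SJ10 or SJ11 (1.2 and 1.16), those of Macrod1 without SJ5, SJ10, SJ11 or SJ12 (1.2, 1.16, 1.33 and 1.5), those of Amz1 without SJ5 or SJ10 (1.16 and 1.14) and those of Il1a without SJ4, SJ5, SJ6, SJ9, SJ11 or SJ12 (-0.747 to -0.599).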

How the results depend on the processing

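For R788 in NBT3L TCM, 2046 genes were called. The fit of the 4 libraries compared called 3678, a 2-fold minimum left 314, and leaving out 1 library gave 1172 to 1264. The other alternatives gave 1604 (edgeR) to 2594 (without the R788 group). The difference from no TCM was called for 1649 genes, for 288 with the 2-fold minimum and for 1034 (without SJ2) to 2585 (without SJ7) with 1 library left out. The difference from NB9464 TCM was called for 115 genes, for 21 by edgeR, for 271 when only the 8 TCM libraries were fitted, for 22 with the 2-fold minimum and for 46 (without SJ6) to 75 (without SJ3 or SJ4) with 1 library left out. No called gene given by the naming rule changed direction under the alternatives run. The median log2 fold change over all genes, 0.0033, became -0.00659 without SJ11 and -0.00535 without SJ12. The balance of positive and negative differences, 842 and 807 against no TCM, became 699 and 749 when only the 8 libraries compared were fitted, 866 and 883 at a mean of at least 50 counts, 510 and 524 without SJ2, 555 and 563 without SJ11, 519 and 550 without SJ12 and 131 and 157 with the 2-fold minimum, and that against NB9464 TCM, 69 and 46, became 134 and 137 when only the 8 TCM libraries were fitted. A fit with a library left out assumes that the lone library of its group varies like the other groups, and causes of these changes were not tested. Of 150 called genes given by the naming rule, 118 kept the call without each of SJ5, SJ6, SJ11 and SJ12, 7 lost it under edgeR and 85 under the 2-fold minimum. TMM scaling took the call from 2 and counts divided by 2 from 1. With 2 libraries a group, small changes at low counts are the least certain. No paired analysis was made because the sample labels do not say which libraries, if any, came from the same cell preparation.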
